A study of Mus musculus with 9 samples.

Results

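Guanylate-binding proteins (GBPs) were followed in bulk RNA of MC38 tumours through 8 genes, Gbp2 to Gbp9, which were taken by symbol from the 42454 gene names in the count tables. MC38 is a mouse colon carcinoma line, and the tumours had grown for 21 days in C57BL/6J hosts. Of the 9 tumours, 5 came from MC38 cells with a CD43 knockout (CD43-KO) and 4 from Vec-MC38 cells, whose genotype is labelled WT (Vec). Host age, the number of clones behind the knockout and any further agent are not given in the labels. CD43, the product of Spn, is a sialylated surface glycoprotein best known from leukocytes, and the hosts of both groups were unmodified as far as the labels say. The libraries come from separate tumours by their labels, and each is a mixture of carcinoma and host cells. Here and below, fewer cells of a type and less RNA per cell cannot be told apart.

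GBPs are large GTPases that interferon gamma induces strongly. They bind guanine nucleotides, assemble on membranes of intracellular pathogens and the vacuoles around them, and promote inflammasome activation. Interferon gamma acts through its receptor and the kinases Jak1 and Jak2, and transcription factors that include Irf1 drive GBP promoters through elements called GAS and ISRE. In tumours, GBP transcripts can come from carcinoma cells and from leukocytes, endothelium or stroma alike.

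The 8 genes lie in 2 groups, given here with RefSeq coordinates of GRCm38.p6. The plus strand of chromosome 3 holds Gbp5 (142496934 to 142522344), Gbp7 (142530336 to 142550151), Gbp3 (142560016 to 142573213) and Gbp2 (142620663 to 142638008). The minus strand of chromosome 5 holds Gbp8 (105012513 to 105053609), Gbp9 (105076464 to 105110357), Gbp4 (105115767 to 105139586) and Gbp6 (105270702 to 105295871). All 8 are annotated as protein coding. Because they are paralogs, reads may be shared. In windows of 100 bases along the longest principal GENCODE M21 transcript, Gbp2 and Gbp5 shared 0 windows with any other gene. Gbp3 shared 0.929%, Gbp9 2.01%, Gbp4 2.88% and Gbp8 3.81% of their windows. Gbp7 shared 10.2%, mostly with Gm43802. Gbp6 shared 82.9% with Gm43302, an overlapping model on the same strand, so its counts are uncertain. The GENCODE model of Gbp8 also overlaps the bounds given above for Gbp9 and Gbp4, and the GENCODE model of Gbp9 overlaps those of Gbp4. The strand setting of the counting is not given in the sources used here.

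The RefSeq promoter table held only 4 of the 8 genes, all on chromosome 3, and the 250 bases before the start are shown for these. Capitals mark matches to a core of the ISRE, TTTC and TTTC with any 2 bases between them, and to the GAS pattern TTCNNNGAA, both searched on either strand. In 0 of the 4 windows did an ISRE match overlap a GAS match. The windows, all on the plus strand of GRCm38.p6, are chr3:142620413-142620662 for Gbp2, chr3:142559794-142560043 for Gbp3, chr3:142496684-142496933 for Gbp5 and chr3:142530086-142530335 for Gbp7. For Gbp3 the window ends at the first start in the promoter table, which lies inside the gene bounds given above, and its positions count from that start.
Gbp2: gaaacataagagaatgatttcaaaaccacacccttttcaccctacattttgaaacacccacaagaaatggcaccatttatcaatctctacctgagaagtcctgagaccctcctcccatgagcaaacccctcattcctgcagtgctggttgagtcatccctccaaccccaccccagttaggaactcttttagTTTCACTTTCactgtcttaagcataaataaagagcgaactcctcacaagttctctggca
Gbp3: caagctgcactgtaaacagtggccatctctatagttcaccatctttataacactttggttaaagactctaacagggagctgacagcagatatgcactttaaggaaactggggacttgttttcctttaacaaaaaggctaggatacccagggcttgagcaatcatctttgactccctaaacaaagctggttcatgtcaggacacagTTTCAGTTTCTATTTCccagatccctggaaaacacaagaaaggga
Gbp5: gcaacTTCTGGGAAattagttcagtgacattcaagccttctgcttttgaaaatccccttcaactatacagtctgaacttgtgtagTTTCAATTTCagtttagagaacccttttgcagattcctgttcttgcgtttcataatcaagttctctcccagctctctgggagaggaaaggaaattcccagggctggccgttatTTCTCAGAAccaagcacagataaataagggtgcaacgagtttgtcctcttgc
Gbp7: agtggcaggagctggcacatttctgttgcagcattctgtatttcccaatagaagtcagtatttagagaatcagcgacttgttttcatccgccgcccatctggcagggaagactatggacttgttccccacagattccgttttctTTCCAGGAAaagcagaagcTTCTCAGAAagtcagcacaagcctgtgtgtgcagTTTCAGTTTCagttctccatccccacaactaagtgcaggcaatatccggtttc

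Each of these 4 windows held the ISRE core, present in 978 of the 32851 promoter windows of the same length (2.98%). The match began 59 bases before the start in Gbp2, 53 bases in Gbp7 and 165 bases in Gbp5. Gbp3 had 2 overlapping matches, which began 45 and 39 bases before its start, and its second listed start had 0. TTCNNNGAA occurred 2 times in the windows of Gbp5 and of Gbp7 and in neither Gbp2 nor Gbp3, against 2306 of all windows (7.02%). These are letter matches and describe the sequence only.

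The tables hold raw counts with totals of 44814061 to 62194418 in CD43-KO libraries and 60751738 to 72114385 in Vec libraries. The 8 genes took 50522 to 87167 counts per CD43-KO library and 44085 to 94381 per Vec library, so counting error is small beside the spread between tumours. Spn was at 25.6, 33.6, 31.2, 22.97 and 6.81 CPM (counts scaled to library size by TMM) in CD43-KO replicates 1 to 5, against 41.0, 43.7, 44.6 and 53.8 CPM in Vec replicates 1 to 4. CD43-KO replicate 3 stands apart by muscle and fat transcripts. The summed CPM of 5 muscle genes was 861 there, against 53.0 to 89.2 in the remaining 4 knockout tumours and 65.9 to 83.3 in Vec tumours. The 4 fat genes summed to 358 CPM there, against 18.7 to 36.3 in the remaining 4 knockout tumours and 34.4 to 46.0 in Vec tumours. Of 7 epithelial markers, Cdh1 averaged 11.5 ± 3.31 CPM in CD43-KO and 10.54 ± 2.37 CPM in Vec tumours, Krt19 0.614 and 0.603 CPM, and Epcam 0.518 and 0.654 CPM. The other 4 were too low to test, with at most 10, 12 and 16 counts per library for Krt8, Krt18 and Vil1 and 0 for Cdx2.

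At least 7 of the 8 GBP genes were above the Vec mean in 3 of the 5 CD43-KO tumours and 2 or 3 of them in the other 2, and the groups overlapped for each of the 8. Mean levels were higher in CD43-KO than in Vec tumours for 7 genes, by log2 fold changes of 0.29 to 0.85, and Gbp9 was at -0.07. For 0 of the 8 did the difference exceed the spread between tumours by the tests used. CD43-KO replicate 3 had the highest level of all 9 tumours for each gene, and Vec replicate 3 the highest among Vec tumours.

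**Figure D1:**
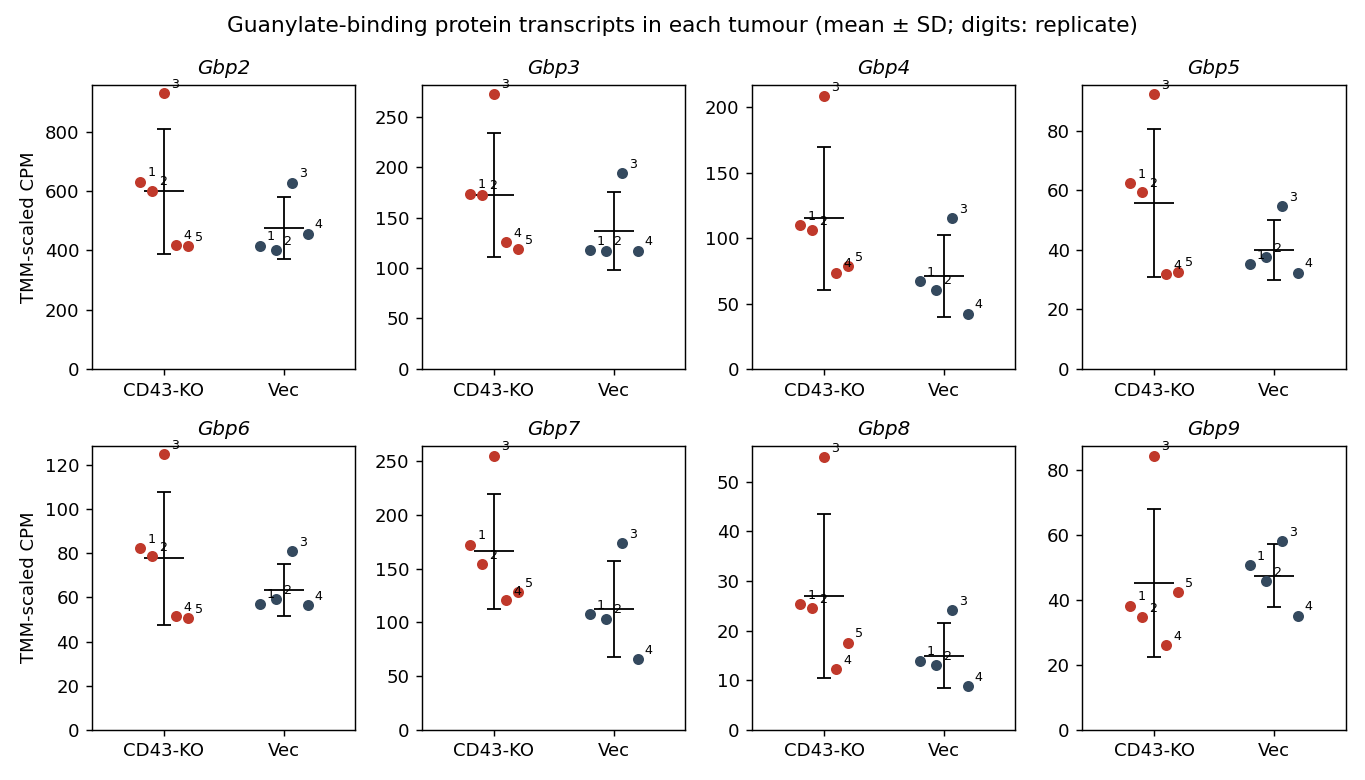
TMM-scaled CPM of the 8 genes (vertical axes from 0) in each CD43-KO tumour (red) and each Vec tumour (dark blue), with the group mean and SD as bars and the replicate number beside each point. CD43-KO replicate 3 is the top point in every panel, for instance 931 CPM for Gbp2, and CD43-KO replicates 4 and 5 sit among or near the Vec tumours.

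Gbp2, whose product coats Toxoplasma vacuoles in mouse cells, was by far the most abundant. It was at 632, 601, 931, 419 and 414 CPM in CD43-KO replicates 1 to 5, against 416, 401, 628 and 457 CPM in Vec replicates 1 to 4. CD43-KO replicates 1 and 3 lay above every Vec tumour, replicate 2 lay below Vec replicate 3 alone, and replicates 4 and 5 lay within the Vec range. The means were 599.5 ± 211 CPM in CD43-KO and 476 ± 104 CPM in Vec tumours (SD, n = 5 and 4). The log2 fold change of CD43-KO over Vec, with its standard error, was 0.33 ± 0.24, and edgeR's quasi-likelihood test gave an adjusted p of 0.517 over all 18243 genes tested.

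Gbp3, also on chromosome 3, was at 174, 172, 273, 125 and 119 CPM in CD43-KO replicates 1 to 5, against 117, 117, 194 and 117 CPM in Vec replicates 1 to 4. The 3 Vec tumours other than replicate 3 were nearly equal, and all 5 CD43-KO tumours lay above those 3. Only CD43-KO replicate 3 exceeded Vec replicate 3. This gave a log2 fold change of 0.34 ± 0.26 (SE, edgeR adjusted p = 0.536).

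Gbp5, which promotes assembly of the NLRP3 inflammasome in mouse macrophages, was at 62.3, 59.4, 92.2, 31.8 and 32.7 CPM in CD43-KO replicates 1 to 5, against 35.1, 37.4, 54.7 and 32.3 CPM in Vec replicates 1 to 4. The first 3 CD43-KO tumours exceeded the 4 Vec tumours. Replicate 4 lay below every Vec tumour and replicate 5 between the lowest pair of them. The log2 fold change was 0.48 ± 0.31 (SE, edgeR adjusted p = 0.471), and CD43-KO levels spanned 2.90-fold against 1.696-fold in Vec.

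Gbp7, linked to NADPH oxidase assembly and autophagy in mouse macrophages, was at 173, 154, 255, 121 and 128 CPM in CD43-KO replicates 1 to 5, against 108, 103, 174 and 65.8 CPM in Vec replicates 1 to 4. All 5 CD43-KO tumours lay above the Vec mean of 113 CPM, but Vec replicate 3 exceeded 4 of them. In the edgeR fit the log2 fold change was 0.56 ± 0.29 (SE, adjusted p = 0.378).

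On chromosome 5, Gbp4, whose product restrains the interferon factor Irf7 in mouse cells, was at 110.0, 106, 209, 73.4 and 78.6 CPM in CD43-KO replicates 1 to 5, against 67.1, 60.4, 115 and 42.1 CPM in Vec replicates 1 to 4. The pattern was that of Gbp7, with all 5 CD43-KO tumours above 3 of the 4 Vec tumours and Vec replicate 3 above 4 of them. This gave a log2 fold change of 0.69 ± 0.36 (SE, edgeR adjusted p = 0.374).

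Gbp8 had the largest log2 fold change and the lowest CPM of the 8. It was at 25.3, 24.5, 55.0, 12.2 and 17.6 CPM in CD43-KO replicates 1 to 5, against 13.9, 13.03, 24.1 and 8.76 CPM in Vec replicates 1 to 4. Of the CD43-KO tumours, 3 exceeded the highest Vec tumour, the first 2 of them only just. The log2 fold change was 0.85 ± 0.43 (SE, edgeR adjusted p = 0.374), with levels spanning 4.502-fold among CD43-KO and 2.75-fold among Vec tumours.

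Gbp6, the gene with uncertain counts, was at 82.4, 78.7, 125, 51.6 and 50.7 CPM in CD43-KO replicates 1 to 5, against 57.1, 59.2, 80.9 and 56.5 CPM in Vec replicates 1 to 4. The last 2 CD43-KO tumours were lower than the lowest Vec tumour, and replicates 1 and 3 exceeded the highest. In the edgeR fit the log2 fold change was 0.29 ± 0.26 (SE, adjusted p = 0.597).

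Gbp9 departed from the rest. It was at 38.2, 34.7, 84.4, 25.97 and 42.4 CPM in CD43-KO replicates 1 to 5, against 50.7, 45.8, 58.1 and 35.1 CPM in Vec replicates 1 to 4. CD43-KO replicates 1 and 2, high for the other 7 genes, lay here below the Vec mean of 47.4 CPM, and replicate 3 alone lay above it. In the edgeR fit the log2 fold change was -0.07 ± 0.31 (SE, adjusted p = 0.923). Without CD43-KO replicate 3 it was -0.43, and without CD43-KO replicate 2 or 4 or Vec replicate 3 it was 0.010, 0.074 and 0.028.

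Read over the 8 genes, 7 had a log2 fold change above 0, where 54.0% of all genes tested did, and their median of 0.41 stands beside 0.03 over all genes. In the edgeR test 0 of the 8 passed at an adjusted p of 0.05, as did 0% of all genes. At an unadjusted p under 0.05 the count was again 0 of 8, while 7.75% of all genes were higher and 7.63% lower by that rule. DESeq2 called 0 of the 8, with 1.36% of all genes higher and 2.02% lower. In 0 of the 8 genes did all CD43-KO tumours lie above, or below, all Vec tumours, beside 2.08% and 3.50% of all genes. Two-sided exact permutation tests on log2(CPM + 0.5) over all possible groupings gave p from 0.135 for Gbp4 and Gbp7 to 0.643 for Gbp9, where the smallest p this design allows is 0.00794. CD43-KO replicate 3 and Vec replicate 3 each set much of the size: the median log2 fold change was 0.17 without the first and 0.60 without the second.

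Set per length of transcript, the order of the genes was similar in both groups. Gbp2 was at 238 ± 83.8 and 189 ± 41.5 CPM per kilobase in CD43-KO and Vec tumours (SD, n = 5 and 4), and Gbp3 followed at 64.3 ± 22.97 and 50.9 ± 14.3. Gbp2 exceeded Gbp3 and Gbp3 exceeded Gbp6 per kilobase in 9 of 9 tumours. Further down, Gbp6, Gbp7, Gbp4 and Gbp5 had overlapping ranges, with means of 29.8, 29.6, 25.4 and 18.2 CPM per kilobase in CD43-KO and 24.4, 20.1, 15.7 and 13.05 in Vec tumours. Gbp9 and Gbp8 came last, at 10.3 and 10.9 CPM per kilobase in CD43-KO and 10.8 and 6.08 in Vec tumours, and stood in that order in 6 of 9 tumours. The lengths are those of 1 transcript per gene, and another model would shift these levels. Summed CPM of the chromosome 3 genes averaged 994 ± 350 in CD43-KO and 765 ± 191 in Vec tumours, and that of the chromosome 5 genes 265 ± 122 and 197 ± 57.8, log2 ratios of 0.38 and 0.43.

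As shares of the GBP transcripts, Gbp2 held 47.85% ± 1.31 of the summed CPM of the 8 genes in CD43-KO and 49.8% ± 4.19 in Vec tumours (SD, n = 5 and 4), and Gbp3 13.8% ± 0.509 and 14.1% ± 0.453. Gbp9 held 2.945%, 2.82%, 4.17%, 3.02% and 4.80% in CD43-KO replicates 1 to 5, against 5.86%, 5.46%, 4.37% and 4.31% in Vec replicates 1 to 4. CD43-KO replicate 5 alone reached into the Vec range, so 4 of 5 lay below every Vec tumour. As a log2 ratio to the other 7 genes, Gbp9 was lower in CD43-KO by -0.54, and by -0.45 to -0.66 when each tumour was left out in turn. Gbp8 held 1.95%, 1.99%, 2.715%, 1.42% and 1.99% in CD43-KO replicates 1 to 5, against 1.61%, 1.56%, 1.81% and 1.075% in Vec replicates 1 to 4, a log2 ratio to the other 7 genes that was higher in CD43-KO by 0.42. Gbp4 held 8.97% ± 0.769 in CD43-KO and 7.20% ± 1.49 in Vec tumours, and Gbp7 13.4% ± 0.867 and 11.5% ± 2.30. Groups overlapped for all 8 shares, and no test was made of them, since they were looked at after the levels were seen. Models of Gbp8, Gbp9 and Gbp4 overlap on the same strand, and the part of this in their shares was not tested.

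**Figure D2:**
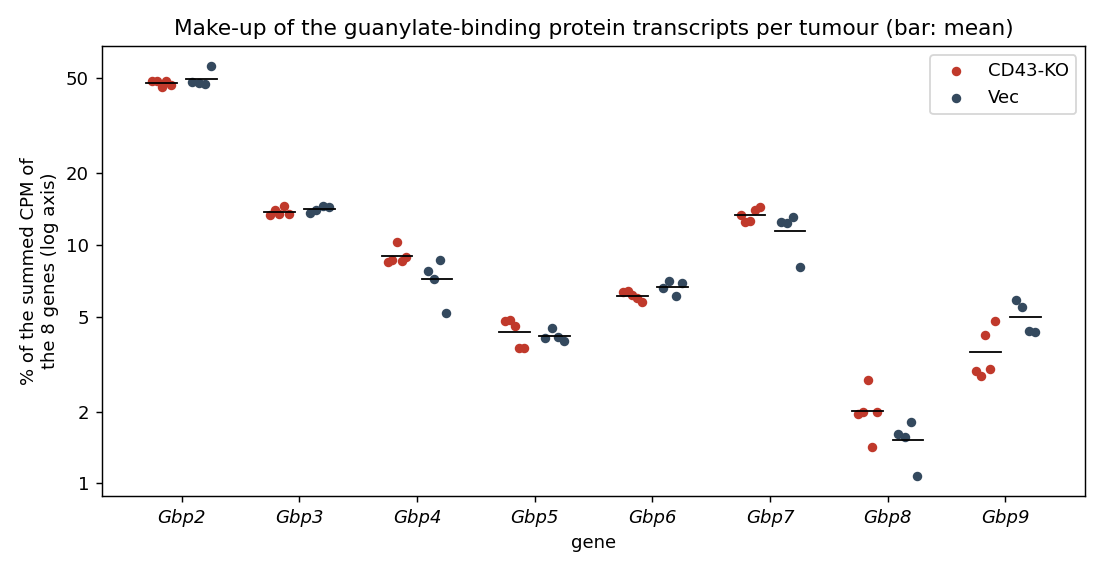
Percent of the summed CPM of the 8 genes held by each gene (log axis), with 1 point per tumour, CD43-KO in red and Vec in dark blue, and a bar at each group mean. Gbp2 holds 47.85% and 49.8% in CD43-KO and Vec tumours, and Gbp9 3.55% and 5.002%.

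Across tumours the 8 genes moved as a block, Gbp9 least closely. Relative to the Vec mean on the log2 CPM scale, CD43-KO replicate 3 was high for all 8 genes, with a median deviation of 1.14 and a range of 0.86 for Gbp9 to 1.97 for Gbp8. CD43-KO replicates 1 and 2 were high for 7 of 8, with medians of 0.55 and 0.46. CD43-KO replicates 4 and 5 had medians of -0.18 and -0.15, with 2 and 3 genes above the Vec mean. Vec replicate 3 was high for 8 of 8, with a median of 0.52, while Vec replicate 4 was low for all 8, with a median of -0.34. As a measure of likeness over the 9 tumours, Pearson's r of log2 CPM was 0.821 to 0.988 in the 21 pairs without Gbp9 and 0.567 to 0.681 in the 7 pairs with it. After subtracting group means the same ranges were 0.800 to 0.991 and 0.740 to 0.908. The pairs share libraries and some share reads, so these values describe the pattern only.

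**Figure D3:**
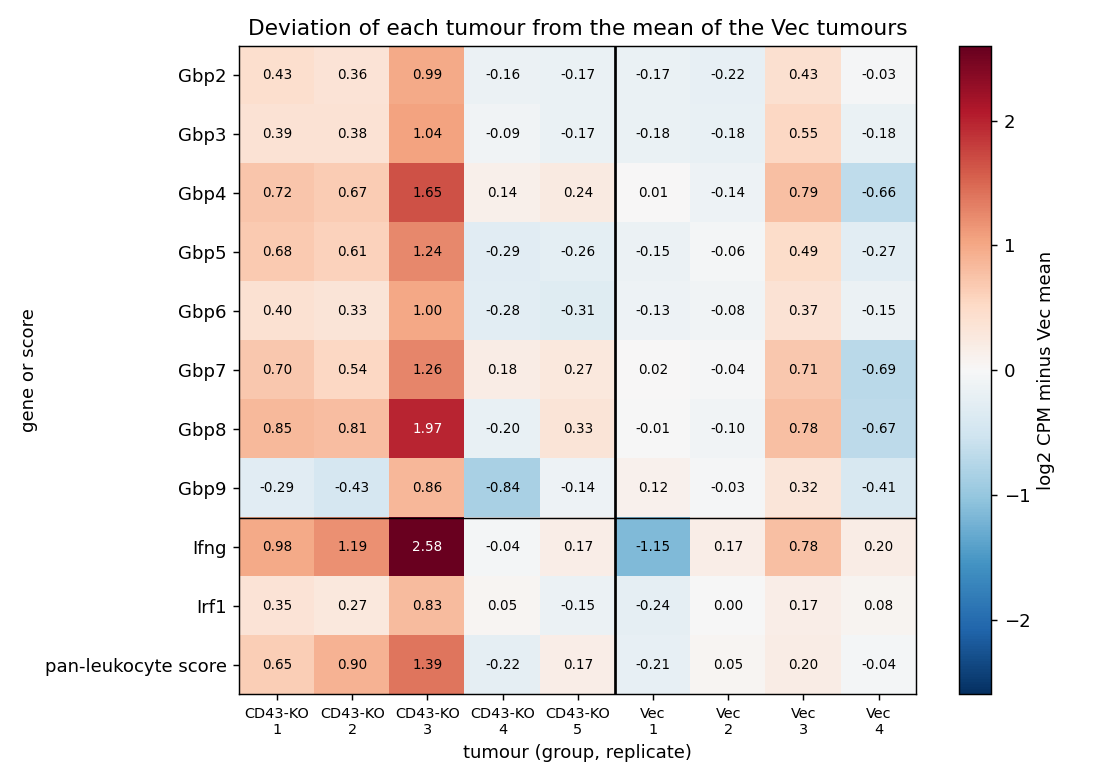
Log2 CPM of each tumour (columns, CD43-KO left of the line, Vec right of it) minus the mean of the Vec tumours, for the 8 genes, for Ifng and Irf1, and for a score of 5 pan-leukocyte genes. CD43-KO replicate 3 is the reddest column, Vec replicate 3 is above 0 in every row, and Gbp9 is below 0 in CD43-KO replicates 1, 2, 4 and 5.

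Of the inducing pathway, Ifng and Irf1 were highest in CD43-KO replicates 1 to 3, while Jak1 was lowest of all 9 tumours in CD43-KO replicate 3, at 109.7 CPM. Ifng, the gene of interferon gamma itself, was at 3.77, 4.35, 11.4, 1.84 and 2.13 CPM in CD43-KO replicates 1 to 5, against 0.837, 2.13, 3.28 and 2.18 CPM in Vec replicates 1 to 4. The 3 highest values were those of CD43-KO replicates 1 to 3, and the log2 fold change was 1.15 ± 0.57 (SE, edgeR adjusted p = 0.360). Irf1 was at 312, 295, 436, 253 and 221 CPM in CD43-KO replicates 1 to 5, against 207, 245, 275 and 258 CPM in Vec replicates 1 to 4. For Irf1 too, CD43-KO replicates 1 to 3 exceeded the highest Vec tumour, and replicates 4 and 5 lay within the Vec range. Its log2 fold change was 0.30 ± 0.18 (SE, edgeR adjusted p = 0.440). Of the 10 genes of this pathway reported here, 7 lay above 0 and 0 passed, with a median of 0.21. Ifngr1, a chain of the receptor, averaged 94.8 ± 22.5 CPM in CD43-KO and 87.0 ± 9.54 CPM in Vec tumours (edgeR adjusted p = 0.721). Jak1 averaged 171 ± 35.6 CPM in CD43-KO and 176.5 ± 20.04 CPM in Vec tumours (edgeR adjusted p = 0.91). Jak2, named after its values were seen as the gene of lowest p among the 10, averaged 51.5 ± 6.56 CPM in CD43-KO and 40.2 ± 7.16 CPM in Vec tumours (edgeR adjusted p = 0.285).

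The immunity-related GTPases, smaller interferon-inducible relatives that also act at pathogen vacuoles, were closer to 0. Of 8 measured, 8 lay above 0 and 0 passed, with a median log2 fold change of 0.20 and a range of 0.01 to 0.39. The most abundant, Iigp1, was at 264, 247, 439, 165 and 161 CPM in CD43-KO replicates 1 to 5, against 152, 180.4, 288 and 157 CPM in Vec replicates 1 to 4. Again CD43-KO replicate 3 was highest, and Vec replicate 3 exceeded 4 of the 5 CD43-KO tumours. Tgtp1 averaged 141 ± 40.4 and 109 ± 19.5 CPM, and Tgtp2 105 ± 36.5 and 87.4 ± 16.9 CPM, in CD43-KO and Vec tumours. Counts of Tgtp2, Irgm1, Irgm2, Igtp, Ifi47 and Gm12250, and in lists that follow of Tap1, Psmb8, Psmb9, Cd2 and Laptm5, a gene of the leukocyte score, are uncertain, as the tables also hold 1 to 3 names with a copy suffix for each. Of the very large GTPase Gvin1 and the antiviral Mx genes, 1 of 3 lay above 0. Gvin1 averaged 179 ± 40.8 and 139 ± 42.6 CPM, Mx1 6.35 ± 1.48 and 8.20 ± 1.85 CPM, and Mx2 2.56 ± 0.965 and 3.79 ± 1.41 CPM, and 0 of these 3 passed.

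The remaining Gbp-named rows were low. Gbp10 overlaps the model Gm43302 on the same strand, as Gbp6 does, so its counts may be uncertain too. Gbp10 averaged 17.2 ± 7.20 CPM in CD43-KO and 14.6 ± 3.87 CPM in Vec tumours, the pseudogene Gbp11 2.01 ± 1.38 and 0.868 ± 0.626 CPM, and Gbp2b 0.938 ± 0.746 and 0.841 ± 0.412 CPM (SD, n = 5 and 4). Their log2 fold changes were 0.23, 1.20 and 0.16 and 0 of the 3 passed, with edgeR adjusted p of 0.724, 0.366 and 0.922. The direction of Gbp10 turned to -0.0057 without CD43-KO replicate 3, and that of Gbp2b to -0.30 without CD43-KO replicate 2.

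Genes that act with GBPs gave a mixed picture. In the inflammasome list 6 of 7 lay above 0 and 0 passed in edgeR, with a median of 0.33. Casp4, the mouse sensor of cytosolic lipopolysaccharide, averaged 36.8 ± 13.4 CPM in CD43-KO and 29.2 ± 5.26 CPM in Vec tumours. Gsdmd, the pore former, averaged 121 ± 15.9 and 119 ± 8.10 CPM, and the adaptor gene Pycard 35.9 ± 21.8 and 23.6 ± 5.30 CPM. DESeq2 called 1 of the 7, the sensor gene Nlrp3, named after its values were seen. Nlrp3 was at 16.2, 14.0, 14.1, 8.33 and 8.48 CPM in CD43-KO replicates 1 to 5, against 5.65, 6.30, 6.86 and 6.02 CPM in Vec replicates 1 to 4, with no overlap. Its log2 fold change was 0.97 ± 0.21 (SE, edgeR adjusted p = 0.160, DESeq2 adjusted p = 0.00288, voom adjusted p = 0.0463).

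The autophagy conjugation genes, which GBPs need to reach vacuoles in mouse cells, lay mostly below 0. Of 10 measured, 8 were below 0 and 2 above, with a median of -0.27, and 0 passed in edgeR or DESeq2. Limma voom called 1 of the 10, Gabarapl1, named after its values were seen, which averaged 62.1 ± 7.36 CPM in CD43-KO and 79.2 ± 8.70 CPM in Vec tumours (voom adjusted p = 0.0388, edgeR adjusted p = 0.231). Map1lc3b was at 162, 159, 171, 155 and 138 CPM in CD43-KO replicates 1 to 5, against 211, 207, 166 and 274 CPM in Vec replicates 1 to 4 (log2 fold change -0.45 ± 0.13 SE, edgeR adjusted p = 0.210). Only CD43-KO replicate 3 reached above the lowest Vec tumour. Gabarap, also uncertain with 1 copy-suffixed name, averaged 124 ± 24.8 and 148 ± 17.5 CPM, and Gabarapl2 83.6 ± 7.99 and 102 ± 13.1 CPM, in CD43-KO and Vec tumours. Of 6 enzymes that attach or process prenyl anchors, carried by some GBPs, 3 lay above and 3 below 0 and 0 passed. The most abundant were Fnta, Zmpste24 and Icmt, with log2 fold changes of -0.17, 0.03 and 0.13.

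Among 8 other genes that interferon gamma induces, 7 lay above 0, with a median of 0.11, and 0 passed in edgeR. B2m averaged 1749.9 ± 503 CPM in CD43-KO and 1581 ± 206 CPM in Vec tumours, Cxcl9 299 ± 151 and 190.1 ± 39.8 CPM, and Cxcl10 143 ± 49.8 and 108 ± 24.4 CPM. Cd274, named after its values were seen, was called by DESeq2 and not by edgeR (DESeq2 adjusted p = 0.0458, edgeR adjusted p = 0.255).

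**Figure D4:**
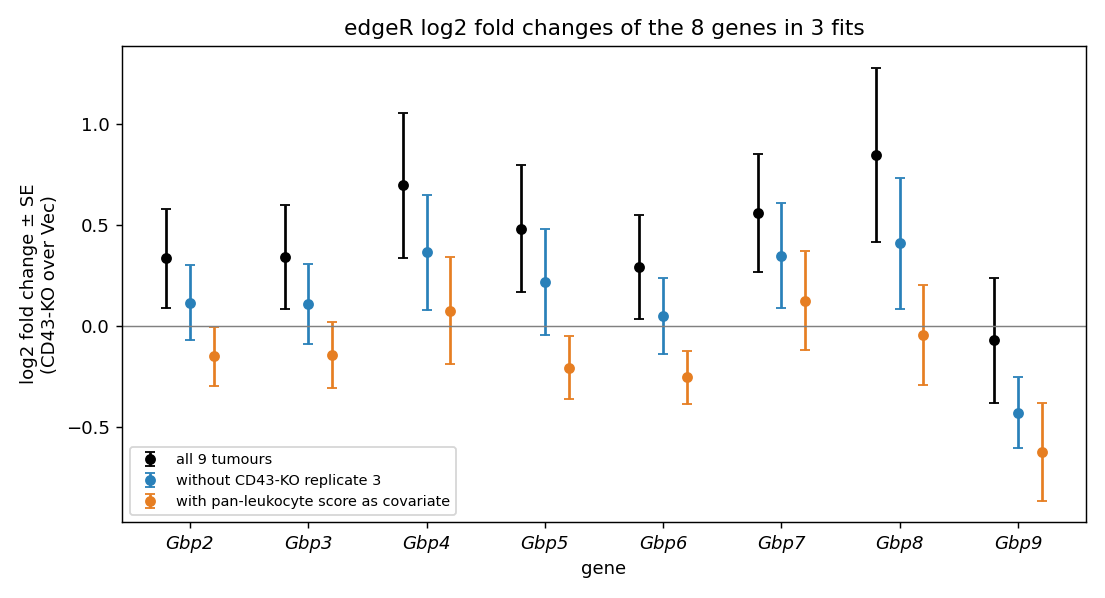
EdgeR log2 fold changes of CD43-KO over Vec with standard errors for the 8 genes (vertical axis), over all 9 tumours (black), without CD43-KO replicate 3 (blue) and with the pan-leukocyte score as a covariate (orange). Without that tumour 7 of 8 points are nearer to 0, at 0.41 for Gbp8 and 0.049 for Gbp6, while Gbp9 is at -0.43, and 6 of 8 lie below 0 with the covariate.

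Leukocyte transcripts were high in CD43-KO replicates 1 to 3, as most GBPs were, but less so in Vec replicate 3. A score of 5 pan-leukocyte genes (Ptprc, Cd53, Laptm5, Coro1a and Itgb2), as mean log2 CPM relative to the Vec mean, was 0.65, 0.90, 1.39, -0.22 and 0.17 in CD43-KO replicates 1 to 5, against -0.21, 0.05, 0.20 and -0.04 in Vec replicates 1 to 4. The highest score among Vec tumours was below that of CD43-KO replicates 1, 2 and 3. It belonged to Vec replicate 3, whose summed CPM of the GBP genes was 1329, against 1297 and 1231 in CD43-KO replicates 1 and 2. All 5 genes of the score had log2 fold changes above 0, and their summed CPM ranged from 351 to 1031 in CD43-KO and from 346 to 457 in Vec tumours. Summed T cell markers ranged from 20.7 to 113 CPM in CD43-KO and from 20.2 to 34.0 CPM in Vec tumours, with 6 of 6 above 0. Summed macrophage markers ranged from 2345 to 9362 and from 2524 to 4271 CPM, with 6 of 6 above 0. Summed endothelial markers ranged from 66.5 to 144 and from 82.4 to 94.8 CPM, with 5 of 5 above 0. In the pan-leukocyte, T cell, macrophage and endothelial lists, 0 genes passed in edgeR or DESeq2. The lowest edgeR adjusted p in each were 0.245, 0.262, 0.314 and 0.417. Summed natural killer markers ranged from 10.99 to 29.4 and from 9.21 to 11.7 CPM, with 4 of 4 above 0. Dendritic cell markers ranged from 15.5 to 26.7 and from 11.4 to 15.7 CPM, with 4 of 4 above 0. The most abundant of them, Zbtb46, averaged 13.15 ± 1.16 and 10.4 ± 1.22 CPM without overlap (edgeR adjusted p = 0.256), beside 2.08% of all genes. Fibroblast markers ranged from 1092 to 3266 and from 1399 to 1582 CPM, with 4 of 5 above 0. Col1a2 and Col1a1 were the most abundant, while Dcn had a log2 fold change of -0.34 (edgeR adjusted p = 0.704). In these lists too, 0 genes passed in edgeR or DESeq2. Neutrophil markers ranged from 13.1 to 86.9 CPM in CD43-KO and from 6.58 to 77.9 CPM in Vec tumours, while Ly6g had at most 5 counts. The log2 fold changes of S100a8 and S100a9 were -0.24 and -0.39 (edgeR adjusted p = 0.912 and 0.869), but Csf3r, named after its values were seen, was at 9.23, 11.9, 21.6, 8.38 and 5.88 CPM in CD43-KO replicates 1 to 5, against 3.71, 4.44, 3.68 and 4.79 CPM in Vec replicates 1 to 4, with no overlap (edgeR adjusted p = 0.167, DESeq2 adjusted p = 0.00203, voom adjusted p = 0.0409). The B cell marker Cd79a was the 1 of 3 tested and stayed at 0.632 CPM or less in every tumour. The part of these cells in the GBP levels was not tested.

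Over the 9 tumours, 16 relations were computed, those of the 8 genes with the leukocyte score and with Irf1. Gbp5 followed the leukocyte score with Pearson's r = 0.927 (permutation p = 0.000529, 0.00329 adjusted over the 16 relations) and Spearman's rho = 0.900 (permutation p = 0.00203, adjusted 0.0108). Without CD43-KO replicates 3 and 2, the farthest on the score, r was 0.826. Gbp2 gave r = 0.897 (permutation p = 0.00288, adjusted 0.00576) and rho = 0.683 (permutation p = 0.0503, adjusted 0.0575), with r = 0.751 without those tumours. Gbp9 gave r = 0.514 (permutation p = 0.163, adjusted 0.174) and rho = 0.350 (permutation p = 0.359, adjusted 0.382), with r = 0.207 without them. All p are exact over the pairings of 9 tumours. With group means subtracted, r with the score was 0.931 for Gbp5, 0.895 for Gbp2 and 0.749 for Gbp9. Against Irf1, r ran from 0.479 for Gbp9 to 0.936 for Gbp2. With Irf1, Gbp9 had rho = 0.0667 and an r of -0.037 without CD43-KO replicate 3 and Vec replicate 1. Without those tumours r with Irf1 also fell for Gbp7, Gbp4 and Gbp8, to 0.484, 0.5485 and 0.565. It was 0.7975 to 0.883 for Gbp2, Gbp3, Gbp5 and Gbp6. With the score, r without CD43-KO replicates 3 and 2 was 0.608 for Gbp7, 0.623 for Gbp4 and 0.674 to 0.761 for Gbp3, Gbp6 and Gbp8. Both groups are too small for a value of their own. Whether Gbp9 differs from the others in this relation was not tested.

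**Figure D5:**
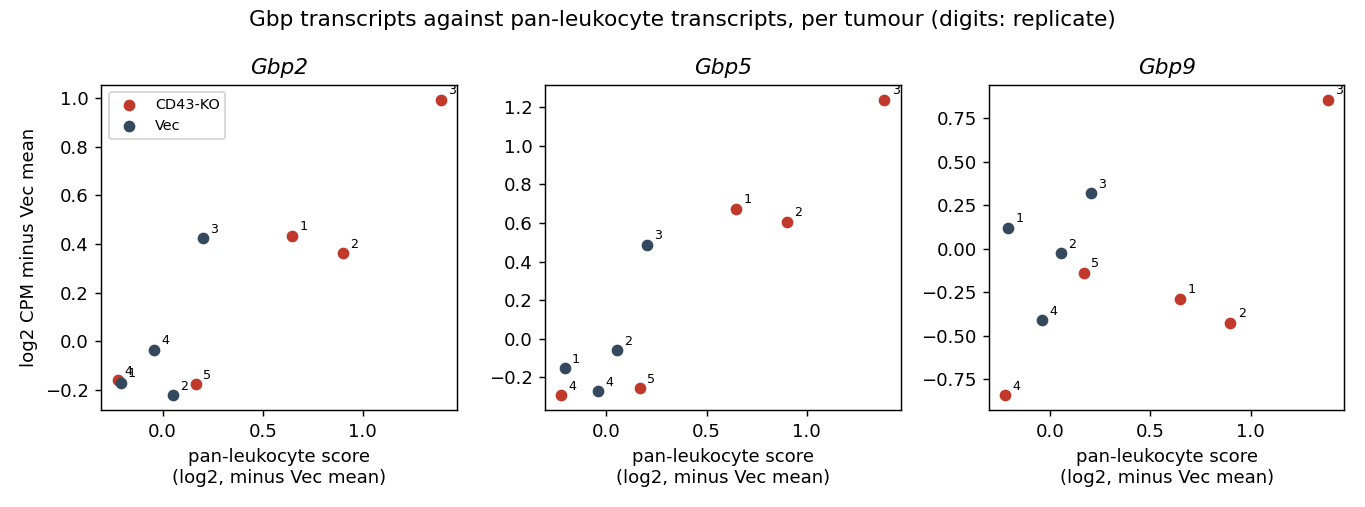
Log2 CPM of Gbp2, Gbp5 and Gbp9 minus the Vec mean (vertical axes) against the pan-leukocyte score minus its Vec mean (horizontal axis), with 1 point per tumour, CD43-KO in red and Vec in dark blue, and replicate numbers. Gbp2 and Gbp5 are highest in CD43-KO replicate 3, where the score is 1.39, while Gbp9 in CD43-KO replicates 1 and 2 lies below 0.

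With the leukocyte score as a covariate, 2 of the 8 genes, Gbp4 and Gbp7, kept a log2 fold change above 0, at 0.074 and 0.125. The other 6 were below 0, from -0.62 for Gbp9 to -0.046 for Gbp8, and 0 of 8 passed. The median was then -0.15. In CD43-KO replicates 1 to 3 the score was itself above that of every Vec tumour, and in replicates 4 and 5, at -0.22 and 0.17, it was not. Score and group are thus partly bound together, and this fit cannot separate them. The summed CPM of the 8 genes divided by that of Ptprc, the common leukocyte gene CD45, was 15.2, 11.35, 13.6, 23.2 and 13.7 in CD43-KO replicates 1 to 5, against 20.2, 16.6, 21.55 and 22.7 in Vec replicates 1 to 4. By that ratio 4 of the 5 CD43-KO tumours lay below every Vec tumour and replicate 4 above them. The ratio depends on the gene chosen. Ptprc had the largest log2 fold change of the genes in the score, 0.89, and Coro1a the smallest, 0.24.

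Among 10719 other genes with a mean of at least 5 CPM, those most like the mean log2 CPM of the 8 GBP genes over the 9 tumours were Casp4 (r = 0.985), Klrd1 (0.975), Iigp1 (0.974), Fcrlb (0.973) and Sdcbp (0.972). Snx10, Crem, Klrc1, Havcr2 and F7 completed the first 10, with r of 0.967 to 0.969. With group means subtracted, the first 10 were Fcrlb, Lilr4b, Klrd1, Casp4, Slco3a1, Ell2, Havcr2, Clec7a, Chmp1b and P2ry14, with r of 0.977 to 0.991. Irf1 stood at rank 299 with r = 0.859. The points share libraries and scaling. The muscle gene Ckm, which the rule did not name, had r = 0.861, and the part of CD43-KO replicate 3 in these values was not tested.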

How the data were processed

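Whole-number counts per gene name were deposited by the authors, 1 table per tumour, without scaling to depth, per the file headers and values. Per the submitters' processing notes HISAT2 2.1.0, StringTie 1.3.5, DESeq2 and GRCm38 were involved, with no role or order given. The sources used here do not give the counter, annotation or strand setting. The 8 members, the gene lists and the tests were chosen with earlier results of these data known.

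In R 4.3.3, edgeR 4.0.16 kept 18243 names by filterByExpr (minimum count 10, minimum total 15), the 8 members among them, scaled libraries by TMM and fitted a robust quasi-likelihood model on group alone. P-values were Benjamini-Hochberg adjusted over all names kept, with a threshold of 0.05. A standard error is the log2 fold change over the root of F. DESeq2 1.42.0 and limma 3.58.1 (voom with quality weights) were alternatives. Log2 CPM used a prior count of 2. Replicates were numbered in deposition order, p-values measure the spread between the deposited tumours only, and 0 columns lacked a sample. The fits were tested on simulated data with planted changes larger than those of the 8 genes. Their power for changes of the size seen here was not tested. All 8 members are named. Of each other list up to 3 of the most abundant tested genes are named by rule. Also named are Ifng, the genes of the leukocyte score, markers too low to test and genes with copy-suffixed names. Genes marked as named after their values were seen are further exceptions. Genes most like the members are the 10 highest r among named genes. 1 gene of the interferon gamma list is not reported here. Promoters are from RefSeq, transcripts and lengths from GENCODE M21.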

Additional observations from a re-analysis of the deposited data

Results flagged for a closer look

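Of 28 checks of 1 gene in 1 group, 6 had a tumour far from the others of its group, where chance gives about 1 in 20. In Vec replicate 3, Gbp3 was at 194.1 CPM against 117.1 to 117.4 CPM in the other Vec tumours, Gbp6 at 80.86 CPM against 56.5 to 59.2 CPM, and Gbp11 at 1.803 CPM against 0.489 to 0.626 CPM. In CD43-KO replicate 3, Gbp4 was at 208.7 CPM against 73.4 to 110.0 CPM in the remaining 4, Gbp9 at 84.41 CPM against 25.97 to 42.4 CPM, and Ifng at 11.45 CPM against 1.84 to 4.35 CPM. Checks on genes that move together are not independent.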

How the results depend on the processing

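The 8 genes gave 120 values under 15 alternatives, of which 112 kept their direction, 8 turned and 0 passed at an adjusted p of 0.05. The count of members called was 0 in each direction under every alternative run. With the pan-leukocyte score as covariate, 2 members lay above 0, the median was -0.15, and Gbp2, Gbp3, Gbp5, Gbp6 and Gbp8 turned to -0.15, -0.14, -0.21, -0.25 and -0.046, with Ifng at -0.077, Irf1 at -0.031, Gbp2b at -1.41, Gbp10 at -0.39 and Gbp11 at -0.11. With each tumour left out Gbp9 ranged from -0.43 to 0.074, Gbp2b from -0.30 to 0.47 and Gbp10 from -0.0057 to 0.41. Gbp9 turned to 0.010, 0.074 and 0.028 without CD43-KO replicate 2, CD43-KO replicate 4 and Vec replicate 3. Gbp2b turned to -0.30, -0.065 and -0.0047 without CD43-KO replicate 2, Vec replicate 1 and Vec replicate 3, and Gbp10 to -0.0057 without CD43-KO replicate 3. The cause was not tested. Leaving out each tumour moved the member median between 0.17 and 0.60 and the count above 0 between 7 and 8. Over all genes, 0 were called in either direction by edgeR, 248 higher and 369 lower by DESeq2, 165 and 332 by voom, 1 lower with no filter, and 0 to 8 higher and 0 to 21 lower with each tumour left out (8 and 21 without Vec replicate 3, 1 higher without Vec replicate 2, 1 lower without CD43-KO replicate 2). DESeq2 called 1 gene each in the inflammasome, comparator and neutrophil lists (Nlrp3, Cd274 and Csf3r), and voom 1 each in the inflammasome, neutrophil and autophagy lists (Nlrp3, Csf3r and Gabarapl1). Summing the counts of each chromosome gave 0.38 and 0.43, beside mean ratios of 0.43 and 0.44, and scaling to library totals turned 0 of 8 directions. No paired analysis was possible because the labels give no number shared between groups. With 474 counts or more for Gbp8, the lowest of the 8, in each tumour, the spread between tumours, 2.11-fold to 4.502-fold in CD43-KO, limits these differences more than depth.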
